A study of Mus musculus with 18 samples.

Results

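Ufm1 and Ufc1 were followed in scraped jejunal enterocytes of mice, as the 2 members of the ufmylation pathway among the features that carry a gene name. They were found by their gene name in the authors' deposited table of fold changes, which names 51 of the 6914 array features, and both have a value on all 18 arrays. Ufm1 is feature 10028 (probe A_55_P1994025, transcript NM_026435) and Ufc1 is feature 29307 (probe A_55_P1975011, transcript NM_025388), and RefSeq assigns each transcript to the gene of that name.

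All mice were male BALB/cOlaHsd, 8 weeks old when gavage began, kept on standard chow and gavaged daily for 20 days. ADI mice were given 9 pesticides mixed at their acceptable daily intakes. PC mice received 30 mg per day of flour of conventionally grown potatoes with skin, PO mice the same amount of flour of organically grown ones, and PCS and POS mice flour of conventionally and organically grown potatoes under storage conditions. Control mice (Ctr) were gavaged with water. Each group had 12 mice, of which 3 were profiled, 1 per 1-colour array. The label of POS mouse 3 gives day 27, after 7 days of resilience, where all other labels give day 20.

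Ufmylation attaches the small ubiquitin-like protein UFM1 to lysines of target proteins, and it works largely at the endoplasmic reticulum. Activated UFM1 is passed to the E2 conjugating enzyme UFC1 and transferred to targets by the ligase UFL1 with DDRGK1 and CDK5RAP3, while the proteases UFSP1 and UFSP2 process UFM1 and remove it. The ribosomal protein RPL26 is a well-studied target, and secretory cells, including those of the gut, depend on the pathway to handle stress of the endoplasmic reticulum. The pathway genes Ufl1, Ddrgk1, Cdk5rap3, Ufsp1, Ufsp2 and Odr4 were looked for and 0 of them carry a name here, and likewise 0 of 12 genes of the endoplasmic reticulum stress response, so the pathway is represented by its modifier and its conjugating enzyme.

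The promoters of both genes are shown because their intensities moved together across arrays, as described further on. Each is 300 bases in RefSeq's GRCm38.p6 annotation, 250 before and 50 after the gene start, read 5′ to 3′ on the minus strand. Ufm1 lies at chr3:53863758-53864057 and Ufc1 at chr1:171294953-171295252. Capitals mark matches to the motifs searched.
Ufm1: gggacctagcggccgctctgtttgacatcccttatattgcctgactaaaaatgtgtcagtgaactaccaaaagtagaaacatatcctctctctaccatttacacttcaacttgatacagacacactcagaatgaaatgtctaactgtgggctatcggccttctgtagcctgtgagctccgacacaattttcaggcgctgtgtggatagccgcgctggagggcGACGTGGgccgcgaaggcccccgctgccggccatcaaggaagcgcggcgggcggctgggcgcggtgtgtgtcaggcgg
Ufc1: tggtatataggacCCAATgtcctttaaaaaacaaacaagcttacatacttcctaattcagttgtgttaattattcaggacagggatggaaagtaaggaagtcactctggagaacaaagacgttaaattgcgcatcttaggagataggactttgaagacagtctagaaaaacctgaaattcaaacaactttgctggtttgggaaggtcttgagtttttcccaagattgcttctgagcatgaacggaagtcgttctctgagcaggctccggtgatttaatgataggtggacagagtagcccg

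Motifs of the unfolded protein response were searched on both strands. The ERSE element, which is CCAAT and CCACG with 9 bases of any kind between them and so overlaps the CCAAT box, was found in 0.119% of 32851 promoters and in neither of these. The UPRE element (TGACGTGG), found in 0.676% of promoters, was also in neither. Its last 7 letters, GACGTGG, lie 28 to 22 bases before the Ufm1 start, a match that 2.42% of promoters share and that was searched for after the sequence had been seen. The CRE element (TGACGTCA, in 1.79% of promoters) and the TATA box (TATAAA, in 13.6%) were in neither promoter. CCAAT, which 37.4% of promoters hold, occurs 237 to 233 bases before the Ufc1 start. The promoters differ in composition, with 20 CpG dinucleotides and 55.7% G or C in Ufm1 and 6 CpG dinucleotides and 41% G or C in Ufc1, against medians of 7 and 52.7% over all promoters.

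Array brightness, which touches every value below, differed widely. Over the 5021 features measured on all arrays, the median intensity lay between 37 and 507 on 17 arrays and at 5 on PO array 2, where 84.2% of values were under 16. That array's median Spearman correlation with the others, across features, was 0.36, against 0.87 to 0.92 for the rest. The 2 named cell type markers of the 39 looked for were the enterocyte apolipoprotein gene Apoa1, which lay at or above the 84.6th percentile of every array, and the T cell gene Cd2, between the 63.4th and 95.2nd percentile. The other cell types of the mucosa have no named marker here, so their part in any value was not tested, and fewer cells of a type and less RNA per cell cannot be told apart. For both genes the authors' fold table implies other ADI and Ctr intensities than their intensity table holds, and the values and tests here use the intensity table. Each gene is given as deposited and relative to the median of its own array.

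Both genes were brighter than the array median on every array but that of PO mouse 3. Ufm1, the modifier itself, had intensities of 32422, 8607 and 2953 in ADI mice, 3628, 3833 and 1374 in PC mice, 278, 565 and 313 in PO mice, 1545, 1276 and 38700 in PCS mice and 10506, 3684 and 1235 in POS mice, against 4578, 1802 and 11369 in Ctr mice. The 3 PO mice were the lowest of all 18, and the highest values came from PCS mouse 3 and ADI mouse 1. Within a group the highest mouse exceeded the lowest by 2.03 times in PO mice and 30.3 times in PCS mice, with 6.31 times in Ctr mice.

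Ufc1, the conjugating enzyme, had intensities of 21600, 4147 and 792 in ADI mice, 1367, 1737 and 561 in PC mice, 166, 135 and 200 in PO mice, 498, 448 and 34726 in PCS mice and 4305, 2180 and 658 in POS mice, against 3783, 1819 and 8321 in Ctr mice. The PO mice were again below every other mouse, and PCS mouse 3 again stood highest. PCS mouse 3 exceeded PCS mouse 2 by 77.5 times, the widest spread of the 6 groups for this gene.

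**Figure D1:**
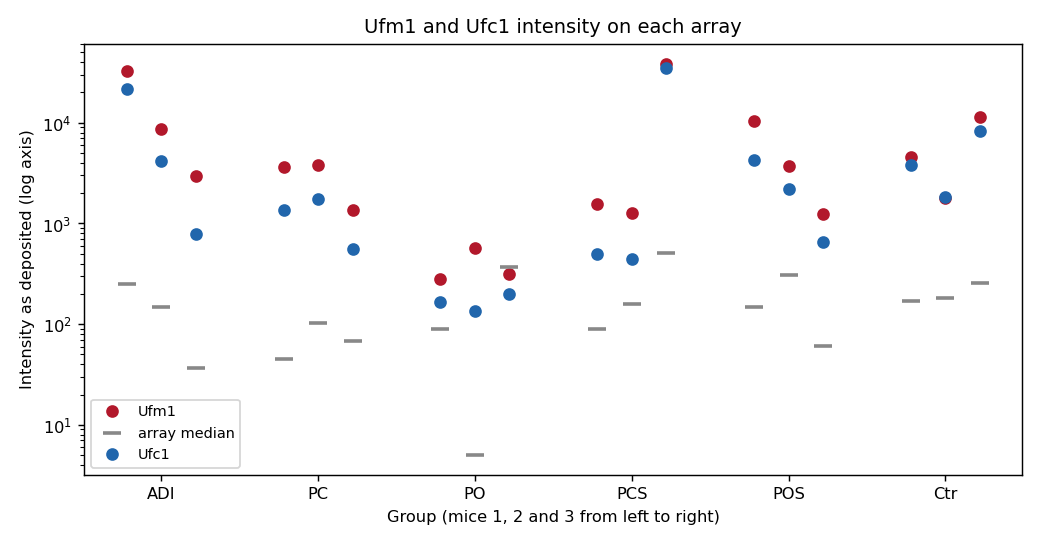
Intensity as deposited (log axis) of Ufm1 (red) and Ufc1 (blue) on each of the 18 arrays, by group, with each array's median over 5021 features as a grey dash. The PO mice, between 135 and 565, lie below all other mice for both genes. The PO array medians are 90, 5 and 370, and those of the Ctr arrays 168, 184 and 256.

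Ranked by mean log2 intensity, the order was the same for both genes: ADI, Ctr, PCS, POS, PC and PO. Ufm1 averaged 13.20 ± 1.73 (SD, n = 3) in ADI mice, 11.38 ± 0.83 in PC mice, 8.52 ± 0.55 in PO mice, 12.05 ± 2.77 in PCS mice and 11.83 ± 1.54 in POS mice, against 12.15 ± 1.33 in Ctr mice. Ufc1 averaged 12.02 ± 2.38 (SD, n = 3) in ADI mice, 10.10 ± 0.86 in PC mice, 7.37 ± 0.28 in PO mice, 10.95 ± 3.58 in PCS mice and 10.84 ± 1.37 in POS mice, against 11.91 ± 1.10 in Ctr mice. Of the neighbours in that order, only PC and PO lay farther apart than the larger of their SDs, by 2.87 for Ufm1 and 2.74 for Ufc1.

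Relative to the array median the order changed. Ufm1 stood at 6.40 ± 0.58 (log2 above the median, SD, n = 3) in ADI mice, 5.30 ± 1.00 in PC mice, 2.74 ± 3.66 in PO mice, 4.46 ± 1.65 in PCS mice and 4.69 ± 1.32 in POS mice, against 4.51 ± 1.11 in Ctr mice. Ufc1 stood at 5.22 ± 1.07 in ADI mice, 4.02 ± 0.94 in PC mice, 1.58 ± 2.89 in PO mice, 3.36 ± 2.42 in PCS mice and 3.70 ± 1.04 in POS mice, against 4.27 ± 0.88 in Ctr mice. ADI mice were again highest and PO mice lowest for both genes, and the only neighbours farther apart than the larger SD were ADI and PC for Ufm1, by 1.11.

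The pesticide mixture at the acceptable daily intake was compared with water. Both genes carry a name here through their ADI folds in the authors' deposited table, made from these mice, so their ADI values and ranks are a description and nothing is read from the background beside them. Relative to the array median, Ufm1 lay at 7.02, 5.87 and 6.32 in ADI mice, against 4.77, 3.29 and 5.47 in Ctr mice. Every ADI mouse was above every Ctr mouse, as for 3.07% of all features in that direction. Ufc1 lay at 6.43, 4.82 and 4.42 in ADI mice, against 4.49, 3.31 and 5.02 in Ctr mice, and the groups overlapped. The log2 difference relative to the median was 1.89 (SE 1.36, 95% interval -1.01 to 4.79) for Ufm1 and 0.95 (SE 1.28, interval -1.78 to 3.68) for Ufc1. As deposited the differences were 1.05 for Ufm1 and 0.10 for Ufc1, where the median feature was at -0.90. The Ufm1 difference exceeded that of 99.1% of the 5021 features and the Ufc1 difference that of 92.7%.

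Neither gene passed the limma test in ADI mice, with adjusted p values of 0.889 and 0.972 as deposited and 1.00 for both relative to the median. In limma 0 of 5021 features (0%) passed on either scale, with 2 at an unadjusted p under 0.05 as deposited and 41 relative to the median. The deposited differences rest on ADI mouse 1, since without that array Ufm1 was at 0.15 and Ufc1 at -1.09, while without ADI array 3 they were larger, at 1.88 and 1.30. Leaving out Ctr array 2 put Ufm1 at 0.38 and Ufc1 at -0.44, and leaving out Ctr array 3 put Ufm1 at 1.71. Relative to the median Ufm1 lay between 1.28 and 2.37 with any 1 of the 6 arrays left out, and Ufc1 between 0.35 and 1.35.

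**Figure D2:**
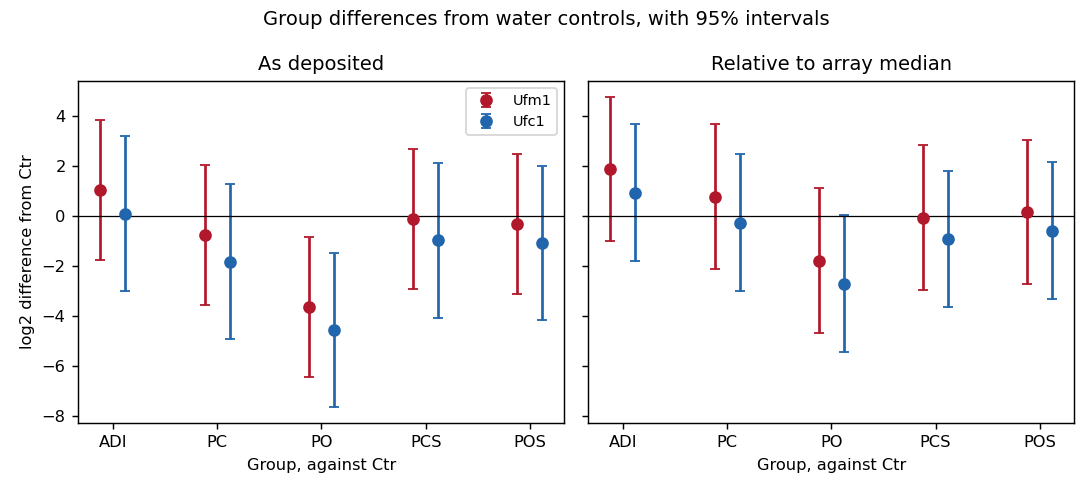
Log2 difference of each exposed group from Ctr mice for Ufm1 (red) and Ufc1 (blue), as deposited (left) and relative to the array median (right), with 95% intervals from the limma fit over 18 arrays. As deposited, the intervals of both genes in PO mice lie below 0 before adjustment, while relative to the median every interval spans 0.

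Both genes had their lowest intensities in mice given flour of organically grown potatoes. As deposited, the log2 difference between PO and Ctr mice was -3.63 (SE 1.35, 95% interval -6.43 to -0.83) for Ufm1 and -4.55 (SE 1.49, interval -7.64 to -1.45) for Ufc1, where the median feature was at -1.98. Every PO mouse was below every Ctr mouse for both genes, as for 7.79% of features in that direction. By limma p, Ufc1 ranked 8th of 5021 features as deposited and 1086th relative to the array median, and Ufm1 ranked 40th and 2513th. As deposited, the Ufc1 difference lay below 99.6% of the features' differences and that of Ufm1 below 94.3%. In limma both had a Benjamini-Hochberg adjusted p of 0.344, and 0 of 5021 features (0%) passed, while the unadjusted p was under 0.05 for 523 as deposited and for 1039 relative to the median.

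PO array 2 decides how these values read relative to the array median. Ufm1 lay at 1.63, 6.82 and -0.24 above the median in PO mice, against 4.77, 3.29 and 5.47 in Ctr mice, and Ufc1 at 0.88, 4.75 and -0.89, against 4.49, 3.31 and 5.02. PO mice 1 and 3 were below all Ctr mice, and PO mouse 2, on the array with a median of 5, was above all of them for Ufm1 and within them for Ufc1. In terms of rank, Ufm1 was at the 72.5th, 98.2nd and 46.1st percentile of the PO arrays and between the 87.4th and 95.5th percentile of the Ctr arrays. The difference relative to the median was -1.78 (SE 1.36) for Ufm1 and -2.69 (SE 1.28) for Ufc1, with limma adjusted p values of 0.423 and 0.246. Without PO array 2 it was -3.82 for Ufm1 and -4.28 for Ufc1, and without PO array 3 it was -0.29 and -1.45. As deposited and without PO array 3, both genes passed in limma, at adjusted p values of 0.044 for Ufm1 and 0.028 for Ufc1. They were among 2936 of the 5021 features that passed, all lower, and with arrays centred on the median 0 passed. Both of these fits keep the dim PO array 2 and PO array 1.

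Flour of conventionally grown potatoes was compared with water. Ufc1 was lower in every PC mouse than in every Ctr mouse as deposited, with a log2 difference of -1.81 (SE 1.49, 95% interval -4.90 to 1.29). The median feature was at -1.55 and 71.3% of features were likewise lower in every PC mouse, so the count is near the background. Ufm1 overlapped between the groups at -0.77 (SE 1.35). Relative to the median Ufm1 turned to 0.78 and Ufc1 stood at -0.26. Without Ctr array 2 Ufm1 was at -1.43 as deposited and 0.18 relative to the median, and without Ctr array 3 at -0.10 and 1.27. The limma adjusted p was 0.667 for Ufm1 and 0.559 for Ufc1, and 0 of 5021 features (0%) passed, while the unadjusted p was under 0.05 for 41 as deposited and for 269 relative to the median. In a limma fit of PC and Ctr arrays alone Ufc1 was among 3519 features that passed, at an adjusted p of 0.020, and with arrays centred in that fit 0 features passed.

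In mice given the stored flours the differences from the water controls were smaller for Ufm1 than for Ufc1, with wide intervals for both. In PCS mice the log2 difference from Ctr mice was -0.10 (95% interval -2.90 to 2.70) for Ufm1 and -0.96 (interval -4.06 to 2.13) for Ufc1, where the median feature was at -0.16. PCS mice 1 and 2 lay below all Ctr mice for both genes and PCS mouse 3, on the brightest array, above all of them. Without PCS array 3 the differences were -1.69 for Ufm1 and -3.03 for Ufc1, and relative to the median without that array -0.95 and -2.28. Without PCS array 2 they were 0.77 and 0.11. In POS mice the difference was -0.32 (interval -3.12 to 2.48) for Ufm1 and -1.07 (interval -4.16 to 2.02) for Ufc1, where the median feature was at -0.53. Without POS mouse 3, the mouse labelled day 27, it was 0.45 for Ufm1 and -0.33 for Ufc1, and without POS array 1 it was -1.09 and -1.69. The limma adjusted p was 1.00 for each gene in both comparisons, and 0 of 5021 features (0%) passed. An unadjusted p was under 0.05 for 50 features in PCS mice and 17 in POS mice as deposited, and for 231 and 237 relative to the median.

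The flours were also compared with one another. Between PC and PO mice the log2 difference was 2.87 (SE 1.35, 95% interval 0.07 to 5.67) for Ufm1 and 2.74 (SE 1.49, interval -0.36 to 5.83) for Ufc1, and every PC mouse was above every PO mouse for both genes, as for 0.737% of features. The differences exceeded those of 99.5% and 99.3% of features, and the median feature was at 0.47. Relative to the median they were 2.56 and 2.43, with overlap through PO mouse 2, and the adjusted p in limma was 1.00 for each as deposited and 0.380 for each relative to the median. Without PO array 2 the values relative to the median were 4.60 and 4.02, and without PO array 3 they were 1.07 and 1.20. In limma 0 of 5021 features (0%) passed, while the unadjusted p was under 0.05 for 11 as deposited and for 752 relative to the median.

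Between POS and PO mice the log2 difference was 3.31 (SE 1.35) for Ufm1 and 3.48 (SE 1.49) for Ufc1, and every POS mouse was above every PO mouse for both genes, as for 2.83% of features. Relative to the median the differences were 1.95 and 2.12. Without PO array 2 these became 3.99 and 3.70, and without PO array 3 they became 0.46 and 0.88. Both genes had an adjusted p of 0.593 in limma, where 0 of 5021 features (0%) passed, while the unadjusted p was under 0.05 for 71 as deposited and for 566 relative to the median. This comparison and that of PC with PO share the PO arrays.

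Between PCS and PC mice the log2 difference was 0.67 for Ufm1 and 0.85 for Ufc1 as deposited, below those of 94.9% and 90.7% of features, and relative to the median it turned to -0.84 and -0.66. Without PCS array 3 the deposited differences were -0.93 and -1.22. Between PCS and POS mice the difference was 0.22 for Ufm1 and 0.11 for Ufc1, and -1.37 and -1.96 without PCS array 3. The groups overlapped in both comparisons. Limma adjusted p values were 0.658 for Ufm1 and 0.616 for Ufc1 in the first and 1.00 for each in the second, and 0 of 5021 features (0%) passed in either. An unadjusted p was under 0.05 for 38 features in the first and 2 in the second as deposited, and for 24 and 15 relative to the median.

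The modifier and its conjugating enzyme followed each other closely from array to array. Across the 18 arrays their log2 intensities had a Pearson correlation of 0.97 and a Spearman correlation of 0.96, and relative to the array median 0.95 and 0.89. Without PO arrays 1 and 3, the farthest from the median Ufm1 value, the correlations relative to the array median were 0.89 and 0.84. The points share arrays, and their brightness was correlated with Ufm1 at 0.45 and with Ufc1 at 0.59 (Pearson) as deposited, and at -0.33 and -0.10 relative to the median. Among 5020 other features Ufc1 ranked 6th in likeness to Ufm1 relative to the median, and Ufm1 ranked 4th in likeness to Ufc1, where the median feature stood at a Spearman correlation of -0.0021 and -0.028. Feature 38123 was most like Ufm1, at 0.98, and feature 30552 most like Ufc1, at 0.996, and neither has a gene name here.

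Among named genes, those most like Ufm1 relative to the array median were Prkar1a, which encodes a regulatory subunit of cAMP-dependent protein kinase, at a Spearman correlation of 0.92, Ufc1 at 0.89, the Hippo pathway transcription factor gene Tead1 at 0.73, the phospholipase C gene Plcb4 at 0.63 and the chromatin helicase gene Chd4 at 0.61. Those most like Ufc1 were Ufm1 at 0.89, Chd4 at 0.78, Prkar1a at 0.74, Tead1 at 0.71 and Plcb4 at 0.53. Like Ufm1, Prkar1a was highest in ADI mice, at 6.04 ± 0.64 (log2 above the array median, SD, n = 3), and lowest in PO mice, at 3.28 ± 3.52, against 3.84 ± 0.87 in Ctr mice. Tead1 was also highest in ADI mice and lowest in PO mice. Other listed genes had another order of group means, since Chd4 was highest in Ctr mice, with -0.04 ± 2.02 in ADI mice against 0.56 ± 1.04 in Ctr mice, and Plcb4 was highest in PC mice and lowest in Ctr mice, with 6.56 ± 1.37 in PC mice against 1.59 ± 3.64 in Ctr mice. The authors chose the named genes on these samples, so likeness among them is a description of these arrays.

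The difference between the genes on the same array is not changed by a common scaling of that array. Its size depends on both probes, so only its change between groups is read. Ufm1 minus Ufc1 was 0.59, 1.05 and 1.90 (log2) in ADI mice, 1.41, 1.14 and 1.29 in PC mice, 0.74, 2.07 and 0.65 in PO mice, 1.63, 1.51 and 0.16 in PCS mice and 1.29, 0.76 and 0.91 in POS mice, against 0.28, -0.01 and 0.45 in Ctr mice. All exposed mice but PCS mouse 3 lay above all 3 Ctr mice. These values are from the intensity table, where the Ctr sums are 17749 for Ufm1 and 13923 for Ufc1. The fold table implies Ctr sums of 9749 and 5923, and the within-array difference under those was not tested.

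The mean within-array difference exceeded that of Ctr mice by 0.94 in ADI mice, 1.04 in PC mice, 0.91 in PO mice, 0.86 in PCS mice and 0.75 in POS mice, and these 5 comparisons share the Ctr arrays. In an exact two-sided permutation test, p was 0.1 for ADI, PC, PO and POS mice, the smallest that 3 against 3 allows, and 0.3 for PCS mice, with Benjamini-Hochberg values of 0.125 and 0.3 over the 5 comparisons. Both genes carry a name here through their ADI folds against these Ctr mice, so the ADI result is a description. The other comparisons reuse the same Ctr arrays. Without PO array 2 the PO value was 0.46, without ADI array 3 the ADI value was 0.58, and without PCS array 3 the PCS value was 1.33. As background, the difference of Ufm1 to another feature lay above the Ctr range in all 3 mice for 70.1% of the 5020 other features in ADI mice, 3.94% in PC mice, 0.0398% in PO mice, 0.418% in PCS mice and 0.359% in POS mice. The matching share for other features minus Ufc1 is not given here. In PO mice both genes lay below Ctr mice as deposited, Ufc1 by more than Ufm1. The Ufc1 difference there lay below that of 99.6% of features, and below that of 93.0% in PCS mice, 84.6% in POS mice and 66.4% in PC mice. The PO, PCS and POS shares therefore do not show how particular the pair is. In PCS mice the pair itself overlapped Ctr mice.

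**Figure D3:**
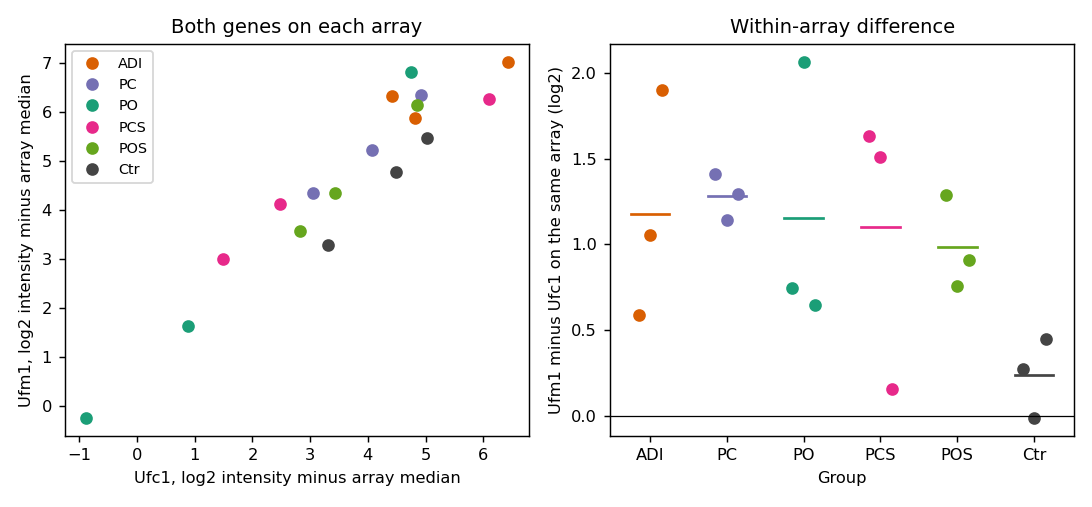
Left, log2 intensity minus the array median of Ufm1 against Ufc1 on each of 18 arrays, coloured by group. Right, Ufm1 minus Ufc1 on the same array (log2), with a point per mouse and a line at the group mean. By the intensity table, the group means lie between 0.98 and 1.28 in the exposed groups and at 0.24 in Ctr mice.

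The authors' deposited table of fold changes lists both genes for ADI mice alone. In the authors' deposited table Ufm1 has log2 fold changes of 1.93, 2.17 and 1.99 in ADI mice 1, 2 and 3, and Ufc1 has 1.22, 1.07 and 1.28. The deposited intensities of the same mice, set against the Ctr mean, were apart by 10.98 times from the lowest to the highest ADI mouse for Ufm1 and 27.3 times for Ufc1. Per its header, the authors' deposited table sets folds between 0.5 and 2 to 0, and the remaining 12 cells of each gene are 0. In the intensities, 7 of those 12 mice lay below 0.5 times the Ctr mean for Ufm1 and 10 of 12 for Ufc1, all 3 PO mice among them for both genes, and 1 of 12 lay above 2 times for each. All 3 PO mice were below 0.5 times for both genes, as for 4.28% of features, and all 3 PC mice for Ufc1, as for 46.4% of features, whereas in ADI mice 1 mouse was above 2 times and 1 below 0.5 times for each gene. These counts use the Ctr means of the intensity table, 5916.3 for Ufm1 and 4641 for Ufc1. The authors' folds imply lower Ctr means, of 3249.7 and 1974.3, so the counts and the authors' zeros do not share a control. Against 1974.3, PC mice 1 and 2, at 1367 and 1737 for Ufc1, and POS mouse 2, at 2180, were not below 0.5 times. The other mice counted for Ufc1, all 3 PO mice among them, stayed below it. For Ufm1 the same 7 mice were below 0.5 times against 3249.7. POS mouse 1, at 10506 for Ufm1 and 4305 for Ufc1, lay above 2 times the implied means.

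The folds in the authors' deposited table are ratios of whole numbers, found with control sums up to 200000 and a tolerance of 1e-06. For Ufm1 the smallest such numbers are 12422, 14607 and 12953 in ADI mice, over a sum of 9749 in Ctr mice, where the intensity table has 32422, 8607 and 2953, over 17749. For Ufc1 they are 4600, 4147 and 4792, over 5923, where the intensity table has 21600, 4147 and 792, over 13923. The 2 tables thus hold the same last 3 digits in all 6 cells and differ by exact multiples of 1000, of -20000, 6000 and 10000 for Ufm1 and -17000, 0 and 4000 for Ufc1, and both control sums differ by -8000. Among the other 16 genes listed for ADI mice with a value on every array, 7 of 48 cells were equal, 23 differed by exact multiples of 1000 and 18 differed otherwise. The cause of these differences was not tested. Which of the 2 tables holds the scanner's values cannot be told from them, and the 2 sets give different spreads: the ADI mice lie close together by the fold table and far apart by the intensity table.

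**Figure D4:**
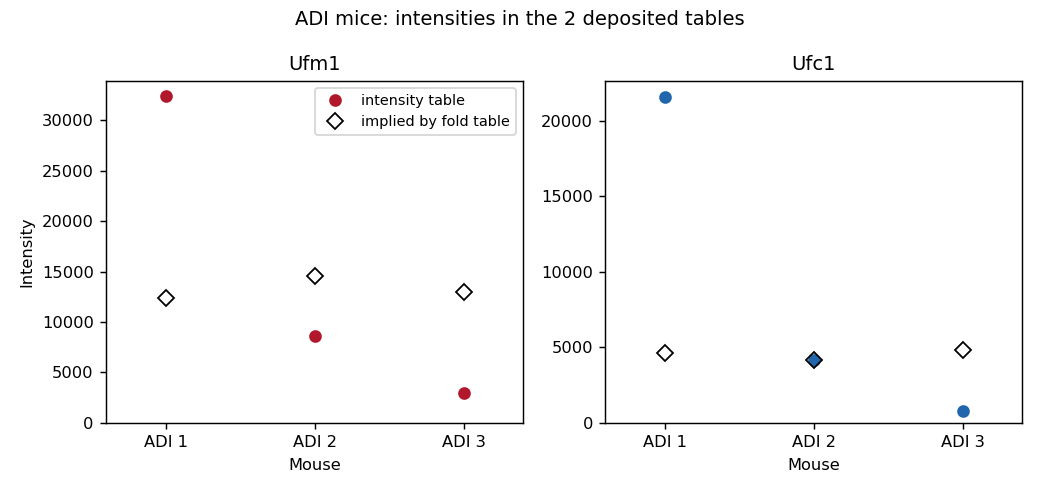
Intensities of Ufm1 (left) and Ufc1 (right) in the 3 ADI mice as listed in the intensity table (filled circles) and as implied by the authors' deposited fold changes (open diamonds), on a linear axis. The implied values lie between 12422 and 14607 for Ufm1 and between 4147 and 4792 for Ufc1, and ADI mouse 2 has the same Ufc1 value in both.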

How the data were processed

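Total RNA of enterocytes was labelled with Cy3 and hybridised to 1-colour Agilent arrays, per the labels' protocols, and read with Agilent Feature Extraction, per the submitters' processing notes. The software version, the signal column, any background step and how rows were picked are not given here in any label or header. The deposited intensity table holds linear whole numbers of up to 65501, of which 432 are 0 or less, and shows no sign of scaling across arrays. The authors deposited log2 fold changes per mouse for 51 genes, filtered at 2 and 0.5 per the file headers.

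Intensities were set to at least 1 and log2 transformed. Rows with a blank PCS cell (1893) were left out. Group means of 18 arrays were fitted over 5021 features with limma 3.58.1 in R 4.3.3 (eBayes, no trend) with Benjamini-Hochberg adjustment at 0.05, in 9 comparisons. Values relative to the array median come from the same fit on arrays centred on their median log2 intensity. The number of arrays limits the precision. Percentiles are ranks of a feature within its array. The fit was tested on simulated data. Python 3.11.15, numpy 2.4.6, pandas 2.3.3 and scipy 1.17.1 were used.

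Both genes and all lists were chosen with earlier results of these data known. A further gene of the pathway list is not reported here. Genes of like pattern are the 5 named features with the highest Spearman correlation. Replicate numbers come from the sample titles, which name separate mice. Deviations from group means of same-numbered arrays, across features, correlated at 0.41, 0.52 and 0.31 between ADI and Ctr mice. An alternative fit therefore took the replicate number as a block over all 18 arrays. Slide and scan were not used here. Alternatives covered scaling, floor, filter, rows, trend, samples fitted, replicate block and single arrays left out.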

Additional observations from a re-analysis of the deposited data

How the results depend on the processing

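Of the 9 alternatives other than leaving out an array, only the scalings of arrays could change a difference between group means. The floor, filter, rows, trend, replicate block and fits of 2 groups alone leave it unchanged by construction, as neither gene has a value under 16. Under the scalings, Ufm1 and Ufc1 kept their direction in ADI against Ctr, PO against Ctr, PC against PO and POS against PO. Ufc1 also kept it in PC, PCS and POS against Ctr. Centring on the median, centring on the 75th percentile and quantile normalisation, in that order, turned Ufm1 in PC against Ctr to 0.78, 0.85 and 0.90, Ufm1 in POS against Ctr to 0.17, 0.20 and 0.20, Ufc1 in PCS against POS to -0.34, -0.27 and -0.097, and in PCS against PC Ufm1 to -0.84, -0.80 and -0.63 and Ufc1 to -0.66, -0.62 and -0.47. Ufm1 in PCS against Ctr turned to 0.041 with the 75th percentile and 0.27 with quantile normalisation, and in PCS against POS to -0.23 with the median and -0.16 with the 75th percentile. In fits of 2 groups alone, Ufc1 in PC against Ctr, at -1.81, was among 3519 features that passed, and the count was 1 in ADI, 1 in PCS and 11 in POS against Ctr and 1 in PCS against PC.

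With single arrays left out, Ufc1 ranged from -1.09 to 1.30 in ADI against Ctr, and in PO against Ctr Ufm1 from -4.30 to -2.97 and Ufc1 from -5.09 to -3.99, with 0 to 2936 features past the threshold. Ufm1 ranged from -1.69 to 0.77 and Ufc1 from -3.03 to 0.11 in PCS against Ctr, Ufm1 from -1.09 to 0.45 in POS against Ctr, Ufm1 from -1.37 to 1.09 and Ufc1 from -1.96 to 1.18 in PCS against POS, and Ufm1 from -0.93 to 1.53 and Ufc1 from -1.22 to 1.92 in PCS against PC. Relative to the array median, Ufc1 ranged from -0.74 to 0.23 in PC against Ctr, Ufm1 from -0.95 to 0.67 and Ufc1 from -2.28 to 0.017 in PCS against Ctr, Ufm1 from -0.55 to 0.73 in POS against Ctr, Ufm1 from -1.12 to 0.50 and Ufc1 from -1.71 to 0.59 in PCS against POS and Ufc1 from -2.03 to 0.28 in PCS against PC. The counts relative to the median ranged from 0 to 1 in ADI, PC, PCS and POS against Ctr and in POS against PO, from 0 to 73 in PO against Ctr and from 0 to 3 in PC against PO. The cause of these changes was not tested.

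The replicate block is balanced over the groups, so it cannot change a difference between group means, only its error. Ufm1 in ADI against Ctr, at 1.05, had a limma adjusted p of 0.904 with the block. Neither gene was called with or without it. The block called 0 features in each of the 9 comparisons. Of the 27 same-numbered pairs 11 correlated above 0.1, with all 3 pairs of a comparison above it for ADI against Ctr alone. Within-array differences of Ufm1 to Ufc1 kept their direction with any single array left out. The alternative floor was also run for these differences but could not change them, as both genes lie above it on every array. With 3 arrays a group, their number limits the precision, and in PO mice 1 of the 3 arrays was dim.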
